A study of Mus musculus with 6 samples.

Results

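Classical cadherins and their catenins were measured in 2 epithelial populations of the neonatal mouse prostate. The genes were taken by name: Cdh1, Cdh2, Cdh3, Cdh4, Cdh6, Cdh11, Cdh13, Ctnna1, Ctnna2 and Ctnnd1, which makes 10 of 36163 gene names on the array, covered by 15 of the 55681 non-control probes of a SurePrint G3 Mouse array. Of these, 10 probes for 8 genes were tested because every array of 1 or both populations had them well above background, among 37008 tested probes in all. Cdh4 and Cdh6 did not reach that level and have values but no test.

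The cells came from prostates of 6-day-old male FVB/N mice that carried the Tg 11.5kb-GFP transgene, in which the s-SHIP promoter drives GFP, and they received no treatment. Cells with Ter119, CD31 or CD45 were gated out, and cells with Sca-1 and CD49f (LSC cells) were sorted by GFP into LSC GFP+ and LSC GFP- populations. Both populations carry the transgene, GFP in this line also marks vascular smooth muscle cells, and each population has 3 independent samples, 1 array each. Whether a sample pooled several animals is not given in the sources used here.

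Classical cadherins are transmembrane proteins that bind the same cadherin on a neighbouring cell in a calcium-dependent way. Their cytoplasmic tail binds p120-catenin, which holds the cadherin at the membrane, and β-catenin, which in turn binds α-catenin and through it the actin cytoskeleton. In the prostate, E-cadherin is present throughout the epithelium, P-cadherin is a basal cell cadherin, and N-cadherin and cadherin-11 are known mainly from mesenchymal and neural cells.

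Cdh3, which encodes P-cadherin, and Cdh1, which encodes E-cadherin, are next to each other on chromosome 8, so the start of the probe that measures each is shown first. The bases run 5′ to 3′ as in the array design, all in lower case, and are the first 30 of 60. The Cdh3 probe lies at chr8:109079933-109079992 and the Cdh1 probe at chr8:109193812-109193871 of mm9, both on the + strand. The probes of Cdh11, at chr8:105156895-105156927 and chr8:105157473-105157532 on the - strand, are added because they gave differences of opposite sign. The first of these positions, that of the brighter probe, is shorter than the probe's 60 bases and so does not hold all of it.

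Cdh3: tattttccctgttatgtgctgtagatggag

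Cdh1: acattctaacgggaaaaaggagacaagacc

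Cdh11, brighter probe: atagaactgtttgaaatcacaacagactga

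Cdh11, dimmer probe: tattttagtatacatacaaatatcagtatt

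Cdh3 was higher in LSC GFP+ than in LSC GFP- cells, and it was the only member whose brightest probe passed the threshold of the study, an unadjusted p under 0.05, here from limma. In what follows "passed" refers to that threshold, and the p printed for a gene is the adjusted one. Of the 8 members tested, 1 was higher, 0 were lower and 7 did not pass. Over all tested probes 7.9% passed (3.38% higher and 4.53% lower in LSC GFP+ cells), so the members' share of 1 in 8 is near that background. The median log2 difference over the members was 0.01, against -0.0043 over all tested probes. After Benjamini-Hochberg adjustment over all tested probes no member passed, and 1 probe of the whole array (0.0027%) did. All levels below are log2 signals relative to the 75th percentile of their array, so that 0 is the signal at that percentile, and the level of one probe is not set against that of another.

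The type I cadherin Cdh3 had levels of 2.95, 2.88 and 2.35 in LSC GFP+ replicates 1, 2 and 3. In LSC GFP- replicates 1, 2 and 3 its levels were 2.22, 1.94 and 1.75. All LSC GFP+ samples were above all LSC GFP- samples, a separation that 6.61% of tested probes showed. The means were 2.72 ± 0.32 (SD, n = 3) and 1.97 ± 0.24 (SD, n = 3), a log2 difference of 0.76 (SE 0.24, 95% confidence interval 0.20 to 1.31) or 1.69-fold, past the threshold (adjusted p = 0.389). Between samples of the same number, the Cdh3 difference was 0.73, 0.93 and 0.61. Left out 1 at a time, the arrays gave differences of 0.65 to 0.94, and each of them passed. Of 5 basal cell markers, 4 (Krt5, Krt14, Krt15, Krt17) were also higher in LSC GFP+ cells and passed. Within each population Cdh3 was lowest in replicate 3, and these 4 genes were highest there. Trp63 had a difference of 0.11 on its brightest probe. Another Trp63 probe passed, at a difference of 0.62 (adjusted p = 0.374). Its levels were 3.72, 4.05 and 3.86 in LSC GFP+ samples against 3.12, 3.28 and 3.36 in LSC GFP- samples. A dimmer tested Trp63 probe had the opposite sign and did not pass, at -0.73 (adjusted p = 0.718) with overlapping samples. The summed signal of these 5 genes, in units of the array's 75th percentile, was 204 to 226 in LSC GFP+ and 152 to 166 in LSC GFP- samples. Their part in the Cdh3 difference was not tested, and in such sorted populations fewer cells of a type and less RNA per cell cannot be told apart.

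E-cadherin did not differ beyond the spread between samples. Cdh1 is on the array as 10 spots of 1 probe, and its levels were -0.56, -0.24 and -0.01 in LSC GFP+ samples and -0.64, -0.44 and -0.41 in LSC GFP- samples. LSC GFP+ replicate 1 lay below LSC GFP- replicates 2 and 3, so the populations overlapped. The SD between single spots of an array was 0.075 to 0.138. Between samples, whose levels are each a mean over such spots, the SD was 0.28 in LSC GFP+ and 0.12 in LSC GFP- samples. A mean over spots varies less than a single spot, so the SD between spots is not a measure of the error of a sample's level. The log2 difference was 0.22 (SE 0.21, 95% confidence interval -0.27 to 0.72, adjusted p = 0.988). The interval includes both 0 and the difference seen for Cdh3. The excess of the Cdh3 difference over the Cdh1 difference was 0.53 (SE 0.39), with p = 0.3 in an exact two-sided permutation test over the 6 samples, which with 3 against 3 cannot go below 0.1. Between samples of the same number the excess was 0.65, 0.74 and 0.20, each positive, with p = 0.25 in an exact two-sided sign-flip test, the smallest that 3 pairs allow. This paired test, like the leave-one-out folds given for the dimmer Ctnna2 probe, was added after the data were seen.

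**Figure D1:**
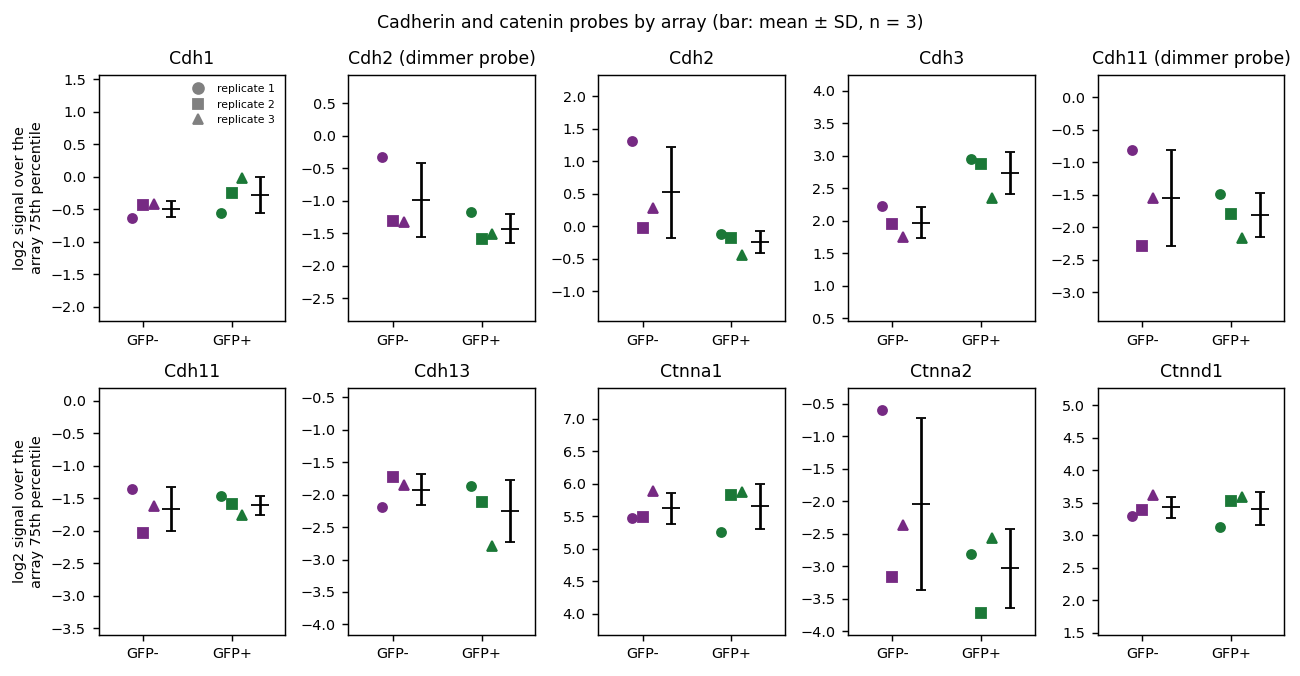
Level of each tested cadherin and catenin probe on each array, as log2 signal relative to the array's 75th percentile, with LSC GFP- samples in purple and LSC GFP+ samples in green. Marker shapes give the replicate number, bars the mean ± SD (n = 3), and every panel spans the same number of log2 units. The samples of the populations separate for Cdh3, where GFP+ is above, and for the brighter Cdh2 probe, where GFP+ is below.

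N-cadherin had lower levels in LSC GFP+ samples without passing the threshold. The brighter Cdh2 probe had levels of -0.12, -0.18 and -0.44 in LSC GFP+ samples and of 1.31, -0.016 and 0.28 in LSC GFP- replicates 1, 2 and 3. LSC GFP- replicate 1 stood far above the other samples, and all LSC GFP- samples were above all LSC GFP+ samples, as for 5.65% of tested probes. The difference was -0.77 (SE 0.34, 95% confidence interval -1.56 to 0.02, adjusted p = 0.650), with an interval that just includes 0. In the fit that blocks on the replicate number it passed (adjusted p = 0.291), as did 14.8% of all tested probes. Without LSC GFP- replicate 1 the difference was -0.38 and did not pass, and without LSC GFP- replicate 2 it was -1.04 and passed.

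The dimmer Cdh2 probe had levels of -1.18, -1.58 and -1.51 in LSC GFP+ samples and of -0.33, -1.30 and -1.32 in LSC GFP- samples. Here the populations overlapped, and LSC GFP- replicate 1 was again the highest sample. The difference was -0.44 (SE 0.30, adjusted p = 0.896). Cdh2 lies on chromosome 18. Set against the brighter Cdh2 probe, the difference of Cdh3 was larger by 1.53 (SE 0.32), with an exact two-sided permutation p of 0.1, the smallest that 3 against 3 allows. All LSC GFP+ samples were above the others for Cdh3 and below them for this Cdh2 probe. That fixed the p at 0.1, so the test adds nothing to those separations. The Cdh2 and Cdh1 contrasts make 2 such tests, with adjusted p of 0.2 for Cdh2 and 0.3 for Cdh1.

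R-cadherin could not be compared. Cdh4, best known from retina and brain, has 3 probes, which were well above background on 4, 1 and 3 of the 6 arrays. Its probe most often above background had levels of -3.56, -6.04 and -3.22 in LSC GFP+ samples and of -4.29, -4.13 and -3.90 in LSC GFP- samples, with overlap.

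The type II cadherins gave no difference beyond the spread between samples. Cdh6, known from developing kidney and brain, was well above background on 2 arrays of each population. Its levels were -3.54, -4.50 and -4.09 in LSC GFP+ samples and -3.19, -5.09 and -3.81 in LSC GFP- samples. The Cdh6 means differed by -0.01, less than the SD of 0.48 and 0.97 within the populations.

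Cdh11, which encodes the mesenchymal cadherin-11 (OB-cadherin), was measured by both probes on all 6 arrays. The brighter probe had levels of -1.47, -1.60 and -1.76 in LSC GFP+ samples and of -1.37, -2.04 and -1.62 in LSC GFP- samples, and the LSC GFP+ samples lay within the range of the others. Its difference was 0.06 (SE 0.23, 95% confidence interval -0.47 to 0.60, adjusted p = 0.996). The dimmer Cdh11 probe had levels of -1.48, -1.79 and -2.16 in LSC GFP+ samples and of -0.81, -2.29 and -1.55 in LSC GFP- samples. Its difference was -0.26 (SE 0.38, 95% confidence interval -1.13 to 0.61, adjusted p = 0.996). The probes thus had differences of opposite sign, neither beyond the spread between samples, and the direction for Cdh11 turned under other settings as given at the end.

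Cdh13 encodes T-cadherin, which is held in the membrane by a lipid anchor and lacks the tail that binds catenins. Its levels were -1.86, -2.11 and -2.79 in LSC GFP+ samples and -2.19, -1.73 and -1.86 in LSC GFP- samples. LSC GFP+ replicate 3 was the lowest and the other samples overlapped. The Cdh13 difference was -0.33 (SE 0.28, 95% confidence interval -0.98 to 0.32, adjusted p = 0.966).

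The catenins that are general parts of the junction had mean levels that differed little, with intervals to both sides of 0. Ctnna1, the α-catenin of epithelia, had levels of 5.26, 5.83 and 5.88 in LSC GFP+ samples and of 5.48, 5.50 and 5.90 in LSC GFP- samples. Its difference was 0.03 (SE 0.24, 95% confidence interval -0.53 to 0.60, adjusted p = 0.996). Ctnnd1, which encodes p120-catenin, had levels of 3.13, 3.53 and 3.59 in LSC GFP+ samples and of 3.30, 3.38 and 3.62 in LSC GFP- samples. Its difference was -0.02 (SE 0.21, 95% confidence interval -0.51 to 0.47, adjusted p = 0.996). For both genes the populations overlapped, and both intervals reach at least 0.47 to either side of 0.

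Ctnna2, the α-catenin of neurons, had, of the tested members, the widest spread within both populations, with SD of 0.61 and 1.32. Its brighter probe had levels of -2.81, -3.72 and -2.57 in LSC GFP+ samples and of -0.59, -3.17 and -2.37 in LSC GFP- replicates 1, 2 and 3. LSC GFP- replicate 1 was the highest, and the other samples overlapped. The difference was -0.99 (SE 0.62, 95% confidence interval -2.43 to 0.45, adjusted p = 0.853). Without LSC GFP- replicate 1 it was -0.26 and did not pass, and without LSC GFP- replicate 2 it was -1.55 and passed.

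On the other Ctnna2 probe no LSC GFP+ array and 2 of the 3 LSC GFP- arrays were well above background, so it was not tested. Its levels were -4.64, -4.66 and -5.32 in LSC GFP+ samples and -2.33, -4.98 and -3.97 in LSC GFP- samples. The LSC GFP- mean, over all 3 arrays, was 1.57-fold the LSC GFP+ mean. Here each LSC GFP+ array was set to its lowest signal well above background if that was higher than the probe's own. LSC GFP- replicate 2, at -4.98, was below the lowest such signal of its array (-4.57) and kept its own value, so the 1.57-fold is not a lower bound. That fold rested on LSC GFP- replicate 1: without this array the LSC GFP- mean was -4.48 against -4.42 for LSC GFP+, which gives no fold. Without LSC GFP- replicate 2 the fold was 2.41. The populations overlapped.

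**Figure D2:**
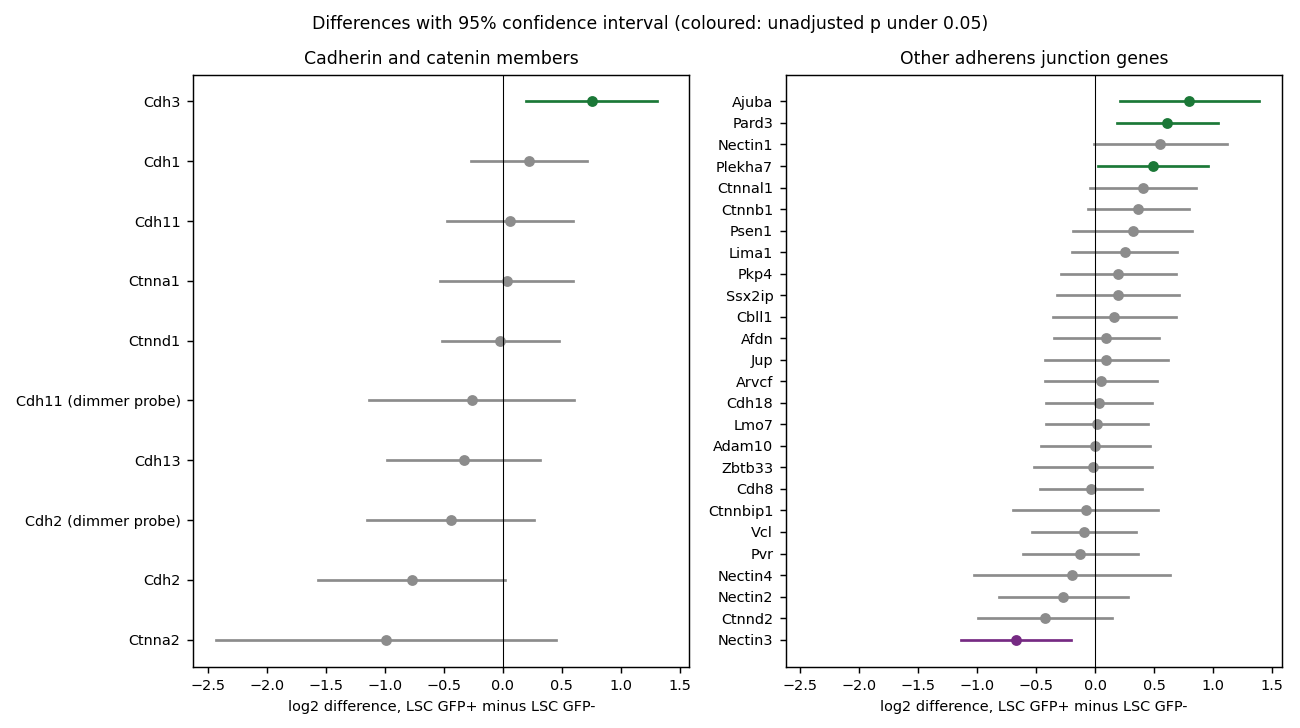
Log2 difference (LSC GFP+ minus LSC GFP-) with its 95% confidence interval for each tested probe of the members at left and for the brightest tested probe of each of 26 other adherens junction genes at right. Green marks higher and purple lower at an unadjusted p under 0.05. Among the members only the interval of Cdh3 lies apart from 0, and at right those of Ajuba, Pard3 and Plekha7 lie above and that of Nectin3 below it.

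LSC GFP- replicate 1, the highest sample for Cdh2 and Ctnna2, was also the highest for markers of mesenchymal cells. The summed signal of 6 smooth muscle genes (Acta2, Actg2, Myh11, Tagln, Cnn1, Des) was 6.21 to 10.0 array percentile units in LSC GFP+ samples and 37.7, 19.6 and 22.1 in LSC GFP- replicates 1, 2 and 3. That of 7 stromal fibroblast genes (Col1a1, Col1a2, Col3a1, Dcn, Lum, Pdgfra, Vim) was 18.6 to 24.9 in LSC GFP+ samples and 58.9, 20.9 and 35.4 in LSC GFP- samples. All 6 smooth muscle genes and 5 of the 7 stromal genes were lower in LSC GFP+ cells, Dcn was higher by 1.19 and Vim had a difference of -0.80 and did not pass. In LSC GFP+ samples the stromal sum came mostly from Dcn, at log2 levels of 3.37 to 3.97, against 2.02 to 2.77 in LSC GFP- samples. Cdh11 was also highest on LSC GFP- replicate 1, at -1.37 and -0.81 on its probes, while LSC GFP- replicate 2 was the lowest of the 6 samples on both. The study describes the LSC gate as holding CD24-positive epithelial cells. It describes the GFP-bright vascular smooth muscle cells as having little or no Sca-1 and CD49f. The source of the smooth muscle and stromal signal in LSC GFP- samples was not tested. The part of these marker genes in the Cdh2 and Ctnna2 values was not tested.

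Of the remaining lists, the luminal keratins Krt8, Krt18 and Krt19 had differences of -0.30, -0.22 and -0.24 that did not pass, and the genes of the sort markers (Ly6a, Itga6, Cd24a) did not pass in either direction. Of the endothelial markers 3 of 5 could be tested, of the leukocyte markers 4 of 5, and of the glial and neuronal markers 4 of 6, and none of them passed. The glial and neuronal sum was 81.3 to 132 in LSC GFP+ and 85.1 to 151 in LSC GFP- samples, with LSC GFP- replicate 1 the highest. It came mostly from the brighter Elavl4 probe, at log2 levels of 6.23 to 7.10 and highest on LSC GFP- replicate 2. The dimmer Elavl4 probe was well above background on no array. Tubb3 was highest on LSC GFP- replicate 1, at 4.78. The part of these genes in the Ctnna2 values was not tested. Cdh5, the cadherin of endothelium, was well above background only on LSC GFP- replicate 3, at a level of -2.24, and was between -6.51 and -6.02 on the other arrays. The endothelial sum was 5.54 to 6.46 in LSC GFP+ and 5.78 to 6.31 in LSC GFP- samples, and it came mostly from the brighter Kdr probe, at log2 levels of 2.44 to 2.64. The dimmer Kdr probe was well above background on LSC GFP- replicate 3 alone, at -2.51, with -4.01 and -5.17 in the other LSC GFP- samples and -6.31 to -6.13 in LSC GFP+ samples. Pecam1 was also highest on LSC GFP- replicate 3, at -1.07 against -3.61 to -2.86 on the other arrays. No array had the leukocyte gene Lyz2 well above background.

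**Figure D3:**
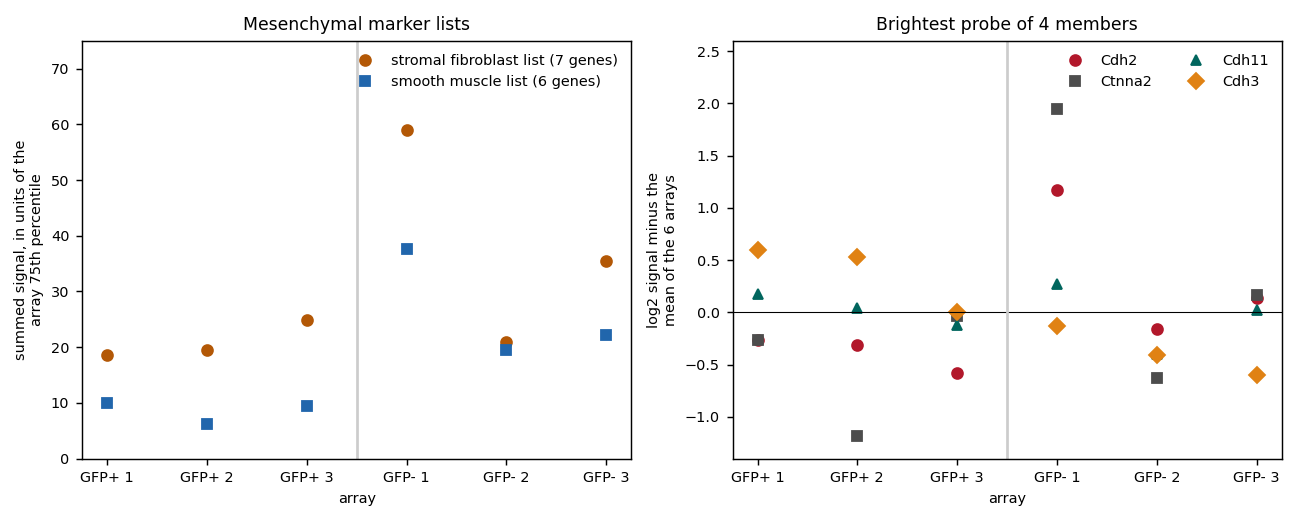
At left, summed signal of stromal fibroblast and smooth muscle marker genes on each array, in units of the array's 75th percentile. At right, the brightest probe of 4 members on the same arrays, as log2 signal minus its mean over the 6 arrays; Cdh2 and Ctnna2 are highest on LSC GFP- replicate 1, where both marker sums are also highest, at 58.9 and 37.7.

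The other genes of the adherens junction were counted from a list of 38, of which 27 could be tested. In LSC GFP+ cells 3 were higher, 2 were lower and 22 did not pass, against 7.9% of all tested probes, and none passed after adjustment. Their median difference was 0.05. Of the 12 other classical cadherins only Cdh8 and Cdh18 could be tested, with differences of -0.04 and 0.03. The catenins and their relatives had 7 of 8 tested and none that passed, and the 4 genes of cadherin turnover and nuclear partners had none either.

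β-catenin, the shared partner of the cadherin tail and of Wnt signalling, was higher on every LSC GFP+ array without passing the threshold. Ctnnb1 had levels of 6.68, 6.77 and 6.92 in LSC GFP+ samples and of 6.42, 6.34 and 6.53 in LSC GFP- samples. Its difference was 0.36 (SE 0.18, 95% confidence interval -0.06 to 0.79, adjusted p = 0.741), and with the replicate block it passed (adjusted p = 0.307). It also passed in the methods' t-test and, at a difference of 0.37, with normexp background correction. In the other alternatives Ctnnb1 did not pass, at 0.24 with quantile normalization and 0.30 to 0.42 with arrays left out. Jup, which encodes plakoglobin, the catenin that desmosomes share with adherens junctions, had a difference of 0.09 (adjusted p = 0.996) with overlapping samples. With the replicate block 2 more genes passed that had not without it, Ctnnal1, a relative of α-catenin, at 0.41 (adjusted p = 0.308) and Nectin1 at 0.55 (adjusted p = 0.201). In that fit 14.8% of all tested probes passed, against 7.9% without the block.

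The genes that passed were mostly linkers of the junction. Of 8 linkers, 3 were higher and 1 was lower in LSC GFP+ cells, against 7.9% of all tested probes in either direction. The 3 higher ones are given here. Ajuba, a LIM protein that binds α-catenin, had levels of -0.052, 0.80 and 0.14 in LSC GFP+ samples and of -0.62, -0.44 and -0.46 in LSC GFP- samples. It rose by 0.80 (SE 0.26, adjusted p = 0.400) with no overlap. Pard3, a scaffold of the cell polarity complex, had levels of 3.97, 4.08 and 3.96 in LSC GFP+ samples and of 3.54, 3.27 and 3.36 in LSC GFP- samples. Its brightest probe rose by 0.61 (SE 0.18, adjusted p = 0.351), and its 3 dimmer probes had differences of 0.25, 0.78 and 0.41, of which the second passed.

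Plekha7, which links p120-catenin to microtubules, had levels of 1.37, 1.48 and 1.38 in LSC GFP+ samples and of 0.69, 1.17 and 0.91 in LSC GFP- samples. It rose by 0.49 (SE 0.20, adjusted p = 0.597) with no overlap, and lost the threshold when any array but LSC GFP- replicate 2 was left out.

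Of the nectins and afadin, immunoglobulin-like adhesion molecules and their actin linker, 1 of 6 passed. Nectin3 had levels of 0.64, 1.09 and 0.91 in LSC GFP+ samples and of 1.51, 1.49 and 1.65 in LSC GFP- samples. It fell by 0.67 (SE 0.20, adjusted p = 0.350) with no overlap. A dimmer Nectin3 probe had a difference of -0.03 (adjusted p = 0.996), and the mean over its tested probes gave -0.35, which did not pass.

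**Figure D4:**
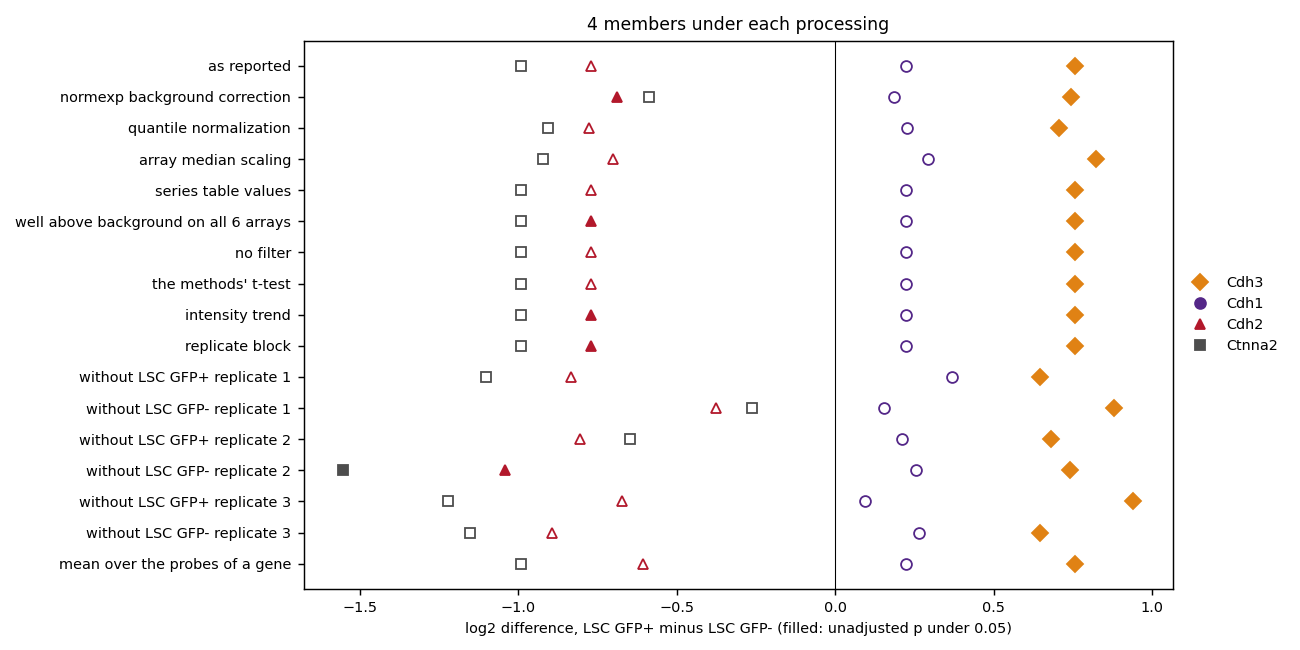
Log2 difference (LSC GFP+ minus LSC GFP-) of the brightest probe of 4 members under the reported processing and each of 16 alternatives. Filled markers have an unadjusted p under 0.05; Cdh3 is filled in every line, Cdh1 in none, Cdh2 in 5 and Ctnna2 in 1.

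The pattern of Cdh3 over the 6 arrays was set against that of 20141 genes, each by its brightest tested probe well above background on all arrays. Likeness was the root mean square of the difference in log2 level after each gene was centred on its own mean. The 5 nearest genes were Ptpn14 (0.040), Hoxa9 (0.077), Klhl29 (0.080), Sik1 (0.081) and Gm10406 (0.082), against a median of 0.521 over the genes compared. For Cdh11 the nearest were Pof1b (0.032), Apc (0.068), Ttbk2 (0.071), Acd (0.074) and Astn2 (0.079), against a median of 0.355. With this many genes and 6 arrays, near patterns are given as a description only.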

How the data were processed

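RNA was amplified (Ovation Pico WTA), labelled with Cy3 and hybridised to 1-colour SurePrint G3 arrays, array work that the study credits to Imaxio. The arrays were scanned in 1 run. Per the file headers, the deposited processed signal is a linear intensity from Feature Extraction 11.0.1.1 (the submitters' processing notes name 10.7.3.1), with background subtracted and no scaling between arrays. Probe positions are those of mm9 in the array design. Exons and UTRs were not assigned. The deposited series table holds the same intensity values, rounded, and served as an alternative.

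Signals were put on the log2 scale minus each array's 75th percentile. Outlier spots (123 to 154 per array) were left out and spots of a probe averaged. To enter the test, a probe had to be marked as well above background by the scanner software on each of the 3 arrays of a population. Per array 36657 to 42127 probes were well above background, and no spot was saturated. Populations were compared with limma 3.58.1 (lmFit, eBayes, R 4.3.3), two-sided, with p adjusted over all tested probes, and the script was tested on simulated data. The brightest tested probe stands for a gene in counts. The number of arrays limits the precision. Whether the samples came from separate animals is not given in the sources used here, so p measures the spread between these samples.

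Members and lists were chosen with earlier results of these data known. Junction partners were named where p was under 0.05, plus Ctnnb1, Jup and Cdh5. Some listed genes are not reported here, though the counts of junction genes include them. Ctnnal1, Nectin1, Cdh8 and Cdh18 were named after their values were seen. The 5 nearest genes were named for Cdh3 and Cdh11. Array symbols of the 10 members equal those of RefSeq (GRCm38.p6, names only), and 6 partners stand under older symbols on the array. Same-numbered samples deviated from their population means together (r = 0.43, 0.28 and 0.67 across probes for replicates 1, 2 and 3), so the replicate numbers in the labels were taken to pair the samples, and a fit with the number as a block was an alternative. Alternatives were normexp background correction, quantile normalization, median scaling, the series table, a stricter filter, no filter, the methods' t-test, an intensity trend, the mean over probes, and leaving out each array.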

Additional observations from a re-analysis of the deposited data

How the results depend on the processing

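Of 128 values recomputed for the 8 tested members under 16 alternatives, 110 kept their sign and their side of the threshold, 6 newly passed and 12 changed sign. The sign changes were all in values that did not pass. Cdh3 stayed higher with p under 0.05 in each alternative (0.65 to 0.94). The count of members that passed was 2, with 1 lower (Cdh2), under normexp, under the filter on all 6 arrays, under the intensity trend and under the replicate block, and it was 1 to 3 when arrays were left out, with 0 to 2 lower. The cause was not tested. The replicate block changed no other member's call. Among the junction partners 8 passed (6 higher) under normexp and under the replicate block, 5 were higher under the methods' t-test and under the trend, and 1 was lower with the mean over probes. Leaving out arrays gave 4 to 6 partners (2 to 4 higher, 2 lower). Over all probes the replicate block gave 5479 (2494 higher, 2985 lower), in place of 2925. Leaving out arrays gave 2077 to 4049 (877 to 1378 higher, 1169 to 2795 lower, the most without LSC GFP+ replicate 1). The split of 1250 higher and 1675 lower was 1471 and 1299 with median scaling. Between 0 and 3 probes passed after adjustment, and with the methods' t-test 2798 probes passed unadjusted and 0 adjusted.

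Cdh11 was -0.045 under normexp, -0.099 with the mean over probes, and -0.0057 and -0.12 without LSC GFP+ replicate 1 and LSC GFP- replicate 2 (-0.12 to 0.22 over the arrays left out). Ctnna1 was -0.054 with quantile normalization and -0.028 to -0.075 without 4 of the arrays in turn (-0.038 without LSC GFP- replicate 1, -0.054 without LSC GFP+ replicate 2), against 0.23 without LSC GFP+ replicate 1. Ctnnd1 was 0.051 with median scaling, and 0.13 and 0.074 without LSC GFP+ replicate 1 and LSC GFP- replicate 3 (lowest -0.10). Cdh8 was 0.032 with median scaling, and 0.0047 and 0.019 without LSC GFP- replicate 1 and LSC GFP+ replicate 3. Cdh18 was -0.066 under normexp, and -0.052 and -0.047 without replicate 1 of LSC GFP+ and of LSC GFP- (highest 0.10). Jup was -0.020 and -0.0023 without LSC GFP- replicate 1 and LSC GFP+ replicate 3 (highest 0.23). Signals near background limit Cdh4, Cdh6 and the dimmer Ctnna2 probe.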
